A study of Mus musculus with 4 samples.

Results

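The 30 genes described here encode claudins and other proteins of the tight junction: 22 claudins, the MARVEL-domain proteins Ocln, Marveld2 and Marveld3, the adhesion molecule F11r, and the scaffold proteins Tjp1, Tjp3, Cgn and Cgnl1. They were chosen by name out of 21883 protein-coding genes placed on the mouse genome; the rule used no measured value, although earlier results of these data were known when the list was drawn up. A stretch of open chromatin belonged to a gene when it touched the gene body or the 10 kb on either side. For the 29 autosomal genes this gave 124 of the 60713 autosomal regions, and the X-linked Cldn2 was kept apart from all totals because the groups each held a female and a male.

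Chromatin accessibility had been profiled by ATAC-seq, which tags open DNA with a transposase, in 40 to 50 mg of lung tumour, frozen on dissection, from each of 4 C57B6J mice aged 55 weeks. All 4 mice were KrasLA1/+, a germline oncogenic allele that stays silent until spontaneous somatic recombination switches it on, so that recombination is not directed to the lung by a promoter or a Cre. The KrasLA1 group had 2 mice with no further allele named, and the KrasLA1;Dicer1S2D group had 2 mice that were also Dicer1S2D/+, with 1 copy of a phosphorylation-mimicking allele of Dicer1, the enzyme that cuts microRNAs from their precursors, which peak positions cannot check. In both groups replicate 1 was a female and replicate 2 a male, and the comparison of the groups asks what that allele does to open chromatin in lung tumours of such mice.

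Tight junctions seal the space between neighbouring epithelial or endothelial cells near their apical side. Claudins form the strands of the junction, and their mix in a cell sets whether the seal is tight or lets selected ions or water through. Occludin and the other MARVEL proteins sit in the same strands, and scaffold proteins such as Tjp1 (ZO-1) tie the strands to the actin cytoskeleton. In the alveolar epithelium of the lung Cldn3, Cldn4 and Cldn18 are the main claudins, whereas Cldn5 is best known from endothelium.

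The values are intervals: each library has its own list of peaks, a peak is present or absent, and the only size it has is its width. The libraries held 34767 to 50282 peaks with median widths of 410 to 534 bp, and the number of reads behind them is unknown. Of the autosomal regions, KrasLA1 replicates 1 and 2 had a peak in 66.0% and 71.8%, and their KrasLA1;Dicer1S2D counterparts in 78.8% and 54.9%, so the KrasLA1;Dicer1S2D libraries lay on either side of both KrasLA1 libraries. Regions were present at all 8 epithelial and all 9 alveolar type 2 marker genes, which mark the lining of the lung, and at 5 of 8 endothelial, 6 of 7 myeloid and 4 of 7 lymphocyte markers. All 8 alveolar type 1 and all 6 airway markers had regions too, as did 4 of 6 markers of fibroblasts and smooth muscle. Most genes have a region, 15878 on the autosomes alone out of 21883 placed on all chromosomes. A region at a marker therefore does not single out a cell type. In such bulk tissue, fewer cells of a type and less open chromatin per cell cannot be told apart.

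Of the 29 autosomal genes, 26 had at least 1 region, and 24 of these had a region that was called in all 4 libraries. Cldn17, Cldn20 and Cldn22 had 0 regions in any library, Cldn16 had a peak in 1 library, and Cldn5 had its only region in 3. The genes with a region had a median of 3.5 regions each and at most 19, against a median of 3.0 over all 15878 autosomal protein-coding genes with a region. The plot of calls by gene gives the count for each gene and library.

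**Figure D1:**
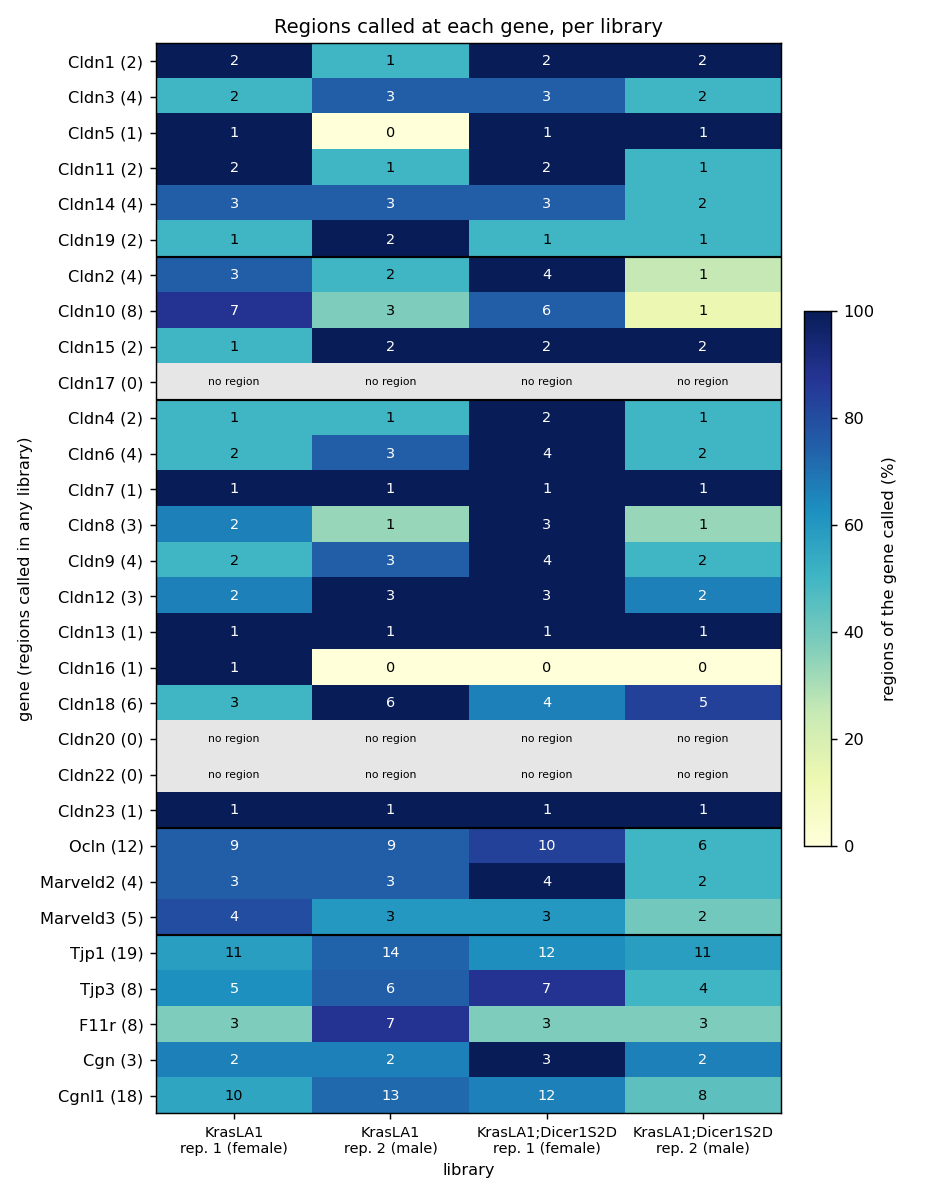
Number of regions called at each of the 30 genes in each library, coloured by the share of that gene's regions that had a peak (percent). The number in brackets after a gene is its total over the 4 libraries, black lines divide sealing claudins, channel claudins, other claudins, MARVEL proteins, and the adhesion molecule with the scaffolds, and grey rows are genes with 0 regions. The X-linked Cldn2 is shown but is in no total. Cldn10 goes from 7 regions in KrasLA1 replicate 1 to 1 in KrasLA1;Dicer1S2D replicate 2, while Cldn7, Cldn13 and Cldn23 have their single region in every library.

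Over all these loci, a peak was present in 80 of the 124 regions in KrasLA1 replicate 1 (64.5%, 95% Wilson interval 55.8 to 72.4%) and in 89 in KrasLA1 replicate 2 (71.8%, 63.3 to 78.9%). The KrasLA1;Dicer1S2D libraries had 93 (75%, 66.7 to 81.8%) in replicate 1 and 64 (51.6%, 42.9 to 60.2%) in replicate 2. Thus the highest and the lowest library both carried Dicer1S2D, and the order of the 4 libraries was that of their shares over all autosomal regions. These intervals cover counting error only, with no spread between mice.

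The difference between the groups was smaller than the spread within them. The KrasLA1 libraries had 84.5 ± 6.36 regions (SD, n = 2) and the KrasLA1;Dicer1S2D libraries 78.5 ± 20.5 (SD, n = 2), a difference of -6 regions (exact two-sided permutation test, p = 1). Peaks at these loci covered 43217 and 54316 bp in KrasLA1 and 46777 and 35741 bp in KrasLA1;Dicer1S2D, a difference of -7507.5 bp between the means of 48766.5 ± 7848 and 41259 ± 7804 bp (SD, n = 2 each; exact two-sided permutation test, p = 0.667). Since 2 libraries against 2 cannot give an exact p below 0.333, a difference of any size would have missed 0.05. Without KrasLA1;Dicer1S2D replicate 2 the difference in regions turned to 8.5 in favour of the Dicer1S2D group. When each library was reduced to its 34767 widest peaks, the number in the smallest library, the groups separated. In KrasLA1 67 and 71 regions were called and in KrasLA1;Dicer1S2D 60 and 64, with 40575 and 49786 bp against 38728 and 35741 bp (exact two-sided permutation test, p = 0.333 for each, the smallest possible). KrasLA1;Dicer1S2D replicate 2 was that smallest library and lost no peaks. The other libraries lost their narrowest peaks, with no common limit of width, so this setting does not treat the libraries alike. Over all autosomal regions that setting gave 33597 and 33967 calls in KrasLA1 and 33389 and 33302 in KrasLA1;Dicer1S2D, also without overlap. As shares these were 69.8% and 70.6% against 69.4% and 69.2%, while those at these loci were 69.8% and 74.0% against 62.5% and 66.7%. The base pairs over all autosomal regions did overlap, with 20948627 and 24897884 in KrasLA1 and 21164332 and 18653359 in KrasLA1;Dicer1S2D. The mean width per called region was 540, 610, 503 and 558 bp in the order given above, with the 2 groups overlapping.

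Sharing between libraries was close to that of the whole genome. All 4 libraries shared 51 of the 124 regions (41.1%, against 43.5% of all autosomal regions), and 38 regions were called in a single library (30.6%, against 27.7%). KrasLA1 replicate 2 alone held 15 of these single-library regions, KrasLA1;Dicer1S2D replicate 1 held 12, KrasLA1 replicate 1 held 9 and KrasLA1;Dicer1S2D replicate 2 held 2. Some of the 124 lie close to other genes as well, and with these set aside 93 regions were left, of which 58, 68, 66 and 47 were called in the 4 libraries in the same order.

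**Figure D2:**
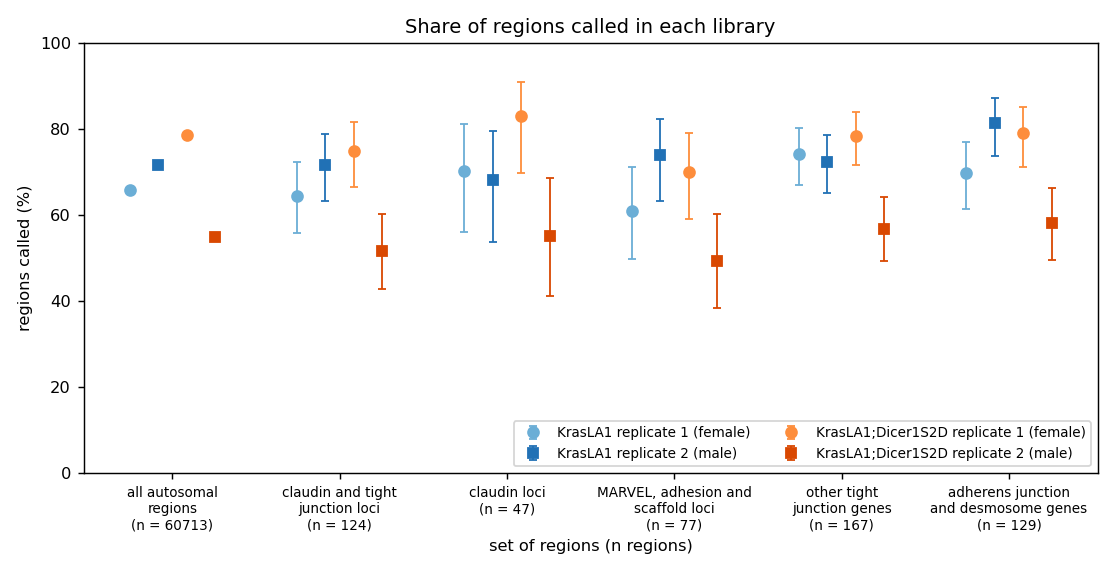
Share of regions with a peak in each library (percent), for all autosomal regions, the claudin and tight junction loci, their claudins and their other genes apart, and 2 further lists of junction genes. Points are single libraries, bars are 95% Wilson intervals for counting error, circles are females and squares males. In every set KrasLA1;Dicer1S2D replicate 2 is the lowest point, as it is over all regions, and at the claudin and tight junction loci it had 51.6%.

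No region at the 29 autosomal loci was called in both KrasLA1;Dicer1S2D libraries and in neither KrasLA1 library, and 3 regions had the reverse pattern. Over all autosomal regions 0.596% had the first pattern and 1.42% the second, so 3 of 124 (2.42%) lies near the level of the genome. By gene, 3 of 26 (11.5%) had a region called in KrasLA1 only, against 4.86% of all genes with a region, and 0 had a region called in KrasLA1;Dicer1S2D only, against 1.78%. The 3 genes were Cldn3, Cldn10 and Ocln, each with 1 such region. These patterns carry no replicate test. With 1 library left out, a region needs fewer calls to count: the KrasLA1-only regions then numbered 18 without KrasLA1 replicate 1, 12 without KrasLA1 replicate 2, 7 without the female of the KrasLA1;Dicer1S2D group and 4 without its male. The KrasLA1;Dicer1S2D-only regions numbered 3, 6, 2 and 12 in the same order of omissions. These loci then held 116, 113, 112 and 122 regions, and all autosomes 57344, 56139, 53606 and 60031. Over all autosomal regions the KrasLA1-only pattern rose from 861 regions to 6291, 4462, 4096 and 1577 in that order. The KrasLA1;Dicer1S2D-only pattern rose from 362 regions to 1435, 2809, 1092 and 7558. The higher counts at these loci thus came with a rise over the whole genome.

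Among the sealing claudins, which make a junction less permeable to ions, 15 regions were found at 6 genes, with 11, 10, 12 and 9 called in KrasLA1 replicates 1 and 2 and KrasLA1;Dicer1S2D replicates 1 and 2. Cldn3, a sealing claudin of alveolar epithelium on chromosome 5 (134986214 to 134987476, mm10), had a peak over its start site in every library, with widths of 1428, 1442, 1397 and 1331 bp in that order. The widths were close to each other, and both KrasLA1 values were above both KrasLA1;Dicer1S2D values. Relative to the median width of each library the sign turned, with a difference of 0.09 in log2 width (SE 0.212, limma, adjusted p = 0.999). The 250 bases in front of this start (RefSeq, GRCm38.p6, + strand, chr5:134985964-134986213) are shown because they are open in every library. None of the 6 motifs given with the start sites occurs in them.
Cldn3: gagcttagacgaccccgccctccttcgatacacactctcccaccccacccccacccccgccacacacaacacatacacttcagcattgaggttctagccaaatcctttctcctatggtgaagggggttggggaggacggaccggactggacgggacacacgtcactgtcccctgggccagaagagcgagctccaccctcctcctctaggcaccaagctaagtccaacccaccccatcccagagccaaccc

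A second Cldn3 region, chr5:134992659-134992895, lay 5183 bp outside the gene and had peaks of 237 and 224 bp in the KrasLA1 libraries and none in the KrasLA1;Dicer1S2D libraries. Both peaks were narrow, and the pattern was gone when only the widest 75% of the peaks of each library were kept. A further region at chr5:134989727-134990046 was called in KrasLA1 replicate 2 and in both KrasLA1;Dicer1S2D libraries, with 320, 276 and 246 bp. Counted over the gene, Cldn3 had 2, 3, 3 and 2 of its 4 regions, with no separation of the groups.

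Cldn1, a claudin needed for the barrier of the skin, had its start site under peaks of 494, 344, 455 and 249 bp, and a second region in the gene was missing in KrasLA1 replicate 2 only. Cldn5, the sealing claudin of endothelium, had 1 region, 369 bp from its start site, with peaks of 500, 0, 359 and 346 bp. The library without it, KrasLA1 replicate 2, had peaks in 20 of the 23 regions at endothelial marker genes, more than the 18, 16 and 14 in the others. Cdh5, Kdr and Tie1 of that list had 0 regions in any library, and the part of endothelial cells in the Cldn5 calls was not tested. Cldn14 had 3, 3, 3 and 2 of its 4 regions and Cldn19 1, 2, 1 and 1 of 2, the latter also within reach of the neighbouring gene P3h1. None of their start sites was under a peak.

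Cldn11, a claudin of myelin and of the testis, divided the libraries by replicate number, and so by sex. Its start site on chromosome 3 at position 31149920 was under peaks of 178 and 206 bp in the 2 females and under no peak in the 2 males. A region 3709 bp in front of it was called in all 4 libraries, with 299, 389, 302 and 320 bp. Regions called in both females and in neither male were 9 of those at these loci (7.26%), against 6.61% of all autosomal regions. Sex has 1 library per genotype here, and no test of it was made. The 250 bases before this start (+ strand, chr3:31149670-31149919) are shown because its calls differ between libraries; they hold none of the 6 motifs.
Cldn11: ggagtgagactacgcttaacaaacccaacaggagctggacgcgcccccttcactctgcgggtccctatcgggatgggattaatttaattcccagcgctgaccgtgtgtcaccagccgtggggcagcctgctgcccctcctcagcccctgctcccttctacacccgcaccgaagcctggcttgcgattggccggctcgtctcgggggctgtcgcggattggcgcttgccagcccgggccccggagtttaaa

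The channel claudins, whose pores let ions or water pass, had 10 autosomal regions, of which 8, 5, 8 and 3 were called. Cldn10, whose forms make cation or anion channels in the kidney and other epithelia, supplied 8 of them and had 7 and 3 in the female and the male of the KrasLA1 group and 6 and 1 in those of the KrasLA1;Dicer1S2D group. In both groups the female had more than the male. The region that all 4 libraries shared, chr14:118847988-118848658, had peaks of 628, 620, 658 and 443 bp. The KrasLA1-only region, chr14:118850110-118850853, lay within the gene, 4097 bp in front of the second annotated start, with peaks of 555 and 744 bp.

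That start itself, at position 118854950, was under a peak of 406 bp in KrasLA1 replicate 1 and under none elsewhere, and the first start, at position 118787871, was under no peak. The 250 bases before the second start (+ strand, chr14:118854700-118854949) are 72.4% G and C and those before the first (chr14:118787621-118787870) 36.0%, and both are printed for that contrast. Capitals mark matches to the NKX2-1 motif CACTTG, read as CAAGTG on the other strand, and to the GATA motif AGATAA.
Cldn10, second start: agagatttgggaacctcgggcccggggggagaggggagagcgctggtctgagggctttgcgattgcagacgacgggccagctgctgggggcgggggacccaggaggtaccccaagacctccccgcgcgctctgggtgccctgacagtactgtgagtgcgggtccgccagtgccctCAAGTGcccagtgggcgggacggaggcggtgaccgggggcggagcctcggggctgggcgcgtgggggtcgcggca
Cldn10, first start: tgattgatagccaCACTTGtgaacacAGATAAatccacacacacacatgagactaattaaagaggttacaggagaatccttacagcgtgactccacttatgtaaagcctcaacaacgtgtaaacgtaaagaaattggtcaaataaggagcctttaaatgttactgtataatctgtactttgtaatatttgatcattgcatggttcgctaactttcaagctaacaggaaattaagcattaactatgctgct

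Cldn15, a cation channel of the intestine, had 1, 2, 2 and 2 of 2 regions, and its wider region covered the start of its neighbour Fis1 with 783, 820, 758 and 753 bp, while its own start was under no peak. Cldn2, the X-linked channel for cations and water, had 3, 2, 4 and 1 of 4 regions, and none was shared by all libraries. Its start site was under no peak. The females had more Cldn2 regions than the males in both groups, as they did for Cldn10. Over all autosomal regions the female was also higher in the KrasLA1;Dicer1S2D group (78.8% against 54.9%), but lower in the KrasLA1 group (66.0% against 71.8%). How many of all genes have this order of the sexes was not counted.

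The other claudins had 22 regions at 10 genes, with 14, 17, 19 and 14 called. Cldn4, which is induced in injured alveolar epithelium, had its start site at position 134946934 of chromosome 5 under peaks of 1553, 713, 1005 and 653 bp. In both groups the female had the wider peak, and the groups overlapped. The 250 bases before the start (- strand, chr5:134946935-134947184) are shown because they hold the AP-1 motif TGANTCA, marked in capitals, at positions -240 to -234 and -158 to -152 from the start.
Cldn4: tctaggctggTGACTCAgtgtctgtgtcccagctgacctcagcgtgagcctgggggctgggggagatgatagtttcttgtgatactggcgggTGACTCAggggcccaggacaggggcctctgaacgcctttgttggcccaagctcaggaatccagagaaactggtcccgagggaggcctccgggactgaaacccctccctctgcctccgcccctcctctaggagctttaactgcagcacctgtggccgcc

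Cldn18, the claudin of alveolar epithelium that is also made in a stomach form from an alternative first exon, lies on the minus strand of chromosome 9 (99690796 to 99717267) and has 2 annotated starts. The downstream start, at position 99710063, was under peaks of 0.69 and 0.86 kb in KrasLA1 and 0.91 and 0.64 kb in KrasLA1;Dicer1S2D, so it was open in all 4 samples with overlapping groups. The upstream start, at position 99717267, was under no peak in any library. Which start serves the lung form and which the stomach form is not assigned here. The bases before both starts are printed to set the open one (chr9:99710064-99710313, 54.0% G and C) beside the one without a peak (chr9:99717268-99717517, 52.0%), with the NKX2-1 match of the first and the 2 GATA matches of the second in capitals.
Cldn18, downstream start: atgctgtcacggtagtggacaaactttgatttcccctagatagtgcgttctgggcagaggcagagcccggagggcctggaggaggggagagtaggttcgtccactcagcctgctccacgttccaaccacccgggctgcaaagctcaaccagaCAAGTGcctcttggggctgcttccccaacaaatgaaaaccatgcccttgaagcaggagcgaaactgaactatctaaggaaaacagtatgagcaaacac
Cldn18, upstream start: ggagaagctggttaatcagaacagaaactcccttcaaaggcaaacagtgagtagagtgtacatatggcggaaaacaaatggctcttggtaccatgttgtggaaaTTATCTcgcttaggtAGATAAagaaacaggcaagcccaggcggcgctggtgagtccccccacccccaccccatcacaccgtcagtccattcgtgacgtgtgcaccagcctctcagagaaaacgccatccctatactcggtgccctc

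Over the whole gene, 3 and 6 of the 6 Cldn18 regions were called in the female and the male of the KrasLA1 group, and 4 and 5 in those of the KrasLA1;Dicer1S2D group, a difference of 0 between the group means. Both males had more than both females, and the share of all genes with that order was not counted. A region 7793 bp upstream of the gene, chr9:99725060-99725556, was called in the 2 males only, with 461 and 452 bp. It was the 1 region with that pattern at the autosomal loci (0.806%), against 2.31% of all autosomal regions. Another Cldn18 region, chr9:99707825-99708579, was called in every library but KrasLA1 replicate 1, with 729, 465 and 342 bp. The widest, chr9:99684806-99686139, lay 4657 bp past the end of the gene and was called in all 4 libraries with 1143, 1327, 1108 and 1169 bp. Alveolar type 2 marker genes had 32, 47, 40 and 31 of 52 regions, again highest in KrasLA1 replicate 2, every one of the 9 had regions in each library, and the part of those cells in the Cldn18 calls was not tested.

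Cldn7, a claudin found along the sides of many epithelial cells, had 1 region in all libraries, and the peak over its downstream start measured 1024, 1955, 704 and 807 bp. Both KrasLA1 widths were above both KrasLA1;Dicer1S2D widths. Raw widths leaned that way over the genome: before each library's median was taken off, 26.9% of all regions called in every library had a difference above 0. How many of all regions have groups that do not overlap in width was not counted. Over the whole region, whose peaks sum to 1698, 1955, 1282 and 1287 bp, the groups did not overlap either, with a limma estimate of -0.34 in log2 width (SE 0.204, adjusted p = 0.999). Cldn12 had its 3 clustered starts under peaks of 809, 761, 770 and 830 bp, and Cldn23 a region of 873, 1366, 1379 and 1261 bp. Cldn8, a claudin of the renal collecting duct, had a region in the gene with 1005, 762, 815 and 885 bp, the values of the groups again overlapping. The single region of Cldn13, with 171 to 294 bp, lay 6731 bp away from the gene and was also within reach of Tmem270.

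Cldn6 and Cldn9, claudins of embryonic epithelia and of the inner ear, are neighbours and share the same 4 regions, with 2, 3, 4 and 2 called. These regions are also within reach of Hcfc1r1, Thoc6 and Tnfrsf12a, and 2 of them cover starts of those genes, while the Cldn6 start was under no peak. Cldn16, a claudin of magnesium reabsorption in the kidney, had a peak of 189 bp in KrasLA1 replicate 1 alone.

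The MARVEL proteins had 21 regions, with 16, 15, 17 and 10 called. Ocln (occludin) had 12 of them, and 9, 9, 10 and 6 were called, so KrasLA1;Dicer1S2D replicate 2 stood lowest. The peak over its starts at positions 100552498 and 100552718 of chromosome 13 was 1865 bp wide in KrasLA1 replicate 1 and 1359, 1305 and 1388 bp in the other 3 libraries. The KrasLA1-only region, chr13:100526093-100526483, lay within the gene, 26015 bp from the nearest start, with peaks of 359 and 391 bp.

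Another region within Ocln, chr13:100532707-100533352, was called in all libraries with 266, 479, 556 and 538 bp. Here both KrasLA1;Dicer1S2D peaks were wider than both KrasLA1 peaks, with a difference of 0.78 in log2 width (SE 0.274, limma, unadjusted p = 0.0334, adjusted p = 0.999). Marveld2 (tricellulin), which seals the corners where cells meet, had its starts under peaks of 782, 946, 828 and 902 bp and 3, 3, 4 and 2 of 4 regions. Marveld3 had 4, 3, 3 and 2 of 5.

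The adhesion molecule and the scaffolds held 56 regions, the most of any group here, with 31, 42, 37 and 28 called. F11r (JAM-A), an adhesion molecule of the immunoglobulin family, had 3 of 8 regions in KrasLA1 replicate 1, 7 in KrasLA1 replicate 2 and 3 in each KrasLA1;Dicer1S2D library. Its start on chromosome 1 was under peaks of 545, 791, 729 and 648 bp and a region 5479 bp past the gene had 1291, 1326, 1232 and 1427 bp, so 2 of the 8 were shared by all. Of the others, 4 were called in KrasLA1 replicate 2 alone, so its higher count rests on peaks seen in that mouse only.

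Tjp1 (ZO-1), the scaffold that binds claudins to actin, is the longest of the genes at 231686 bp and had the most regions, 19, with 11, 14, 12 and 11 called and 7 shared by all. Its start was under peaks of 628, 792, 575 and 711 bp. A region 98421 bp upstream of that start but inside the annotated gene, chr7:65469665-65470592, was wider in every library, with 917, 928, 900 and 890 bp. Cgnl1 (paracingulin), a cytoskeletal linker of tight and adherens junctions, had 10, 13, 12 and 8 of 18 regions, 7 of them shared, and start peaks of 731, 1330, 977 and 1114 bp.

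Tjp3 (ZO-3) had 5, 6, 7 and 4 of 8 regions. The start at position 81291267 of chromosome 10 was under a peak of 182 bp in KrasLA1;Dicer1S2D replicate 1 alone, and a region of 715, 846, 719 and 756 bp, 977 bp outside the gene, covered the start of the neighbour Pip5k1c in all libraries. Cgn (cingulin), a linker of the junction to actomyosin, had 2, 2, 3 and 2 of 3 regions and start peaks of 508, 611, 425 and 432 bp. Both KrasLA1 widths at the Cgn start were above both others, the direction in which raw widths leaned over all regions. The limma estimate there was -0.21 in log2 width with an SE of 0.205 and an adjusted p of 0.999.

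**Figure D3:**
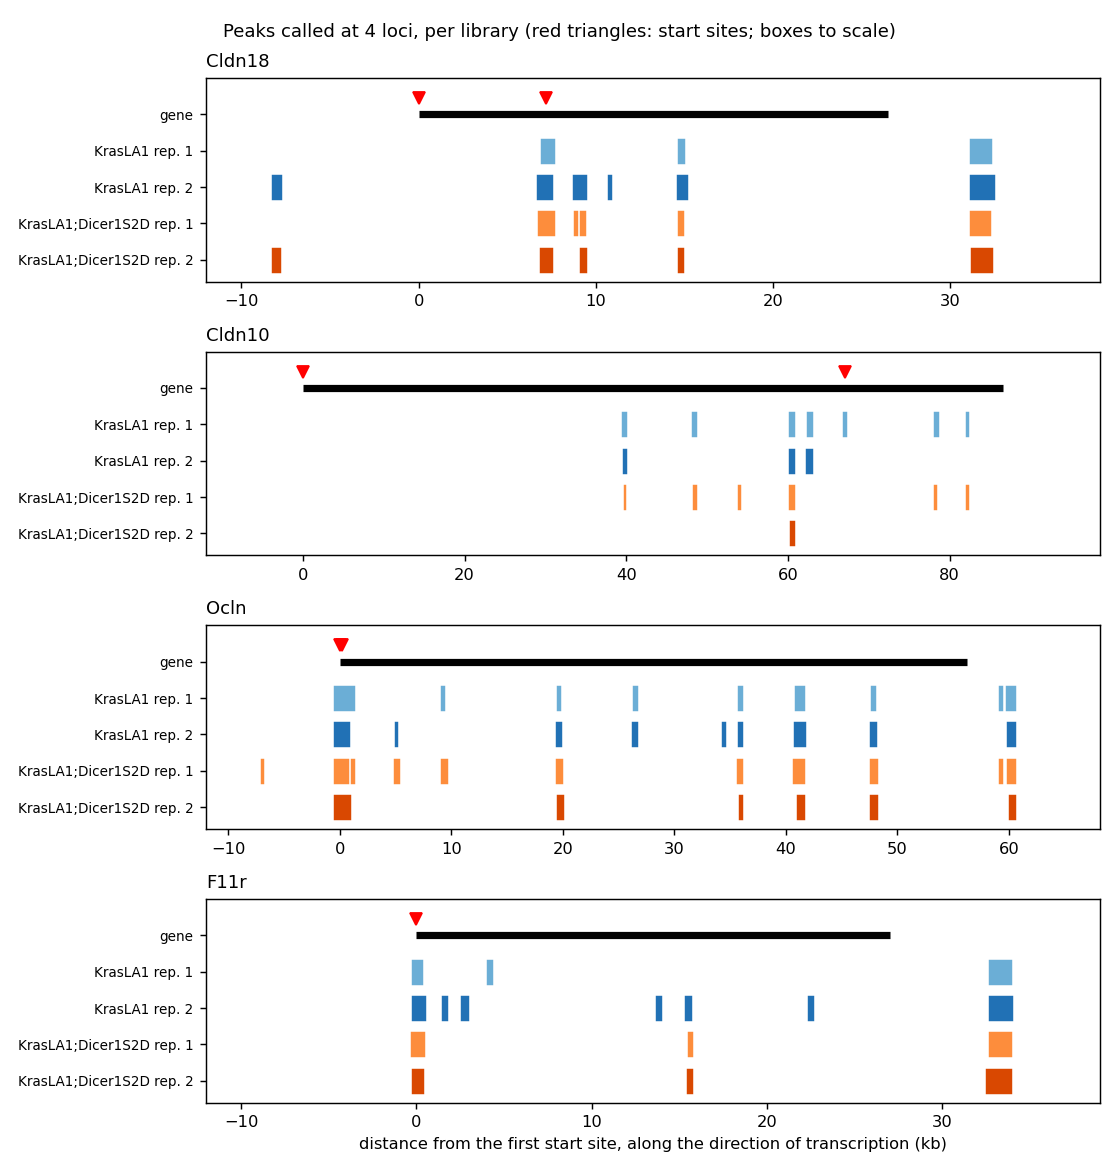
Peaks of each library (boxes, to scale) at Cldn18, Cldn10, Ocln and F11r against the distance in kb from the first annotated start, along the direction of transcription. Black bars are genes and red triangles annotated starts. The first start of Cldn18 has no peak in any library and the second has a peak in all 4. Cldn10 has 1 region in KrasLA1;Dicer1S2D replicate 2, and 7 of the 8 F11r regions are in KrasLA1 replicate 2.

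Shares of covered start sites were close to those of all genes. RefSeq lists 35 autosomal starts for 24 of them, with none in the table for Cldn8, Cldn9, Cldn13, Cldn23 and Marveld3. A peak covered 16 starts in all 4 libraries (45.7%, against 44.3% of 20084 autosomal starts), 16 in none (45.7%, against 46.9%) and 3 in some (8.57%, against 8.84%). The last 3 were those named above, with peaks of 406 bp at Cldn10, 178 and 206 bp at Cldn11 and 182 bp at Tjp3. By library, 18, 16, 18 and 16 of the 35 starts were covered, and neither genotype had more.

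By gene, 12 had a start covered in all 4 libraries: Cldn1, Cldn3, Cldn4, Cldn7, Cldn12, Cldn18, Ocln, Marveld2, F11r, Tjp1, Cgn and Cgnl1. In 9 genes, all of them claudins, no start was covered in any library. Of the 21 regions over any annotated start, 17 were called in all libraries (81.0%), and of the 103 others 34 (33.0%). Over all genes the same shares were 88.1% and 36.3%.

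**Figure D4:**
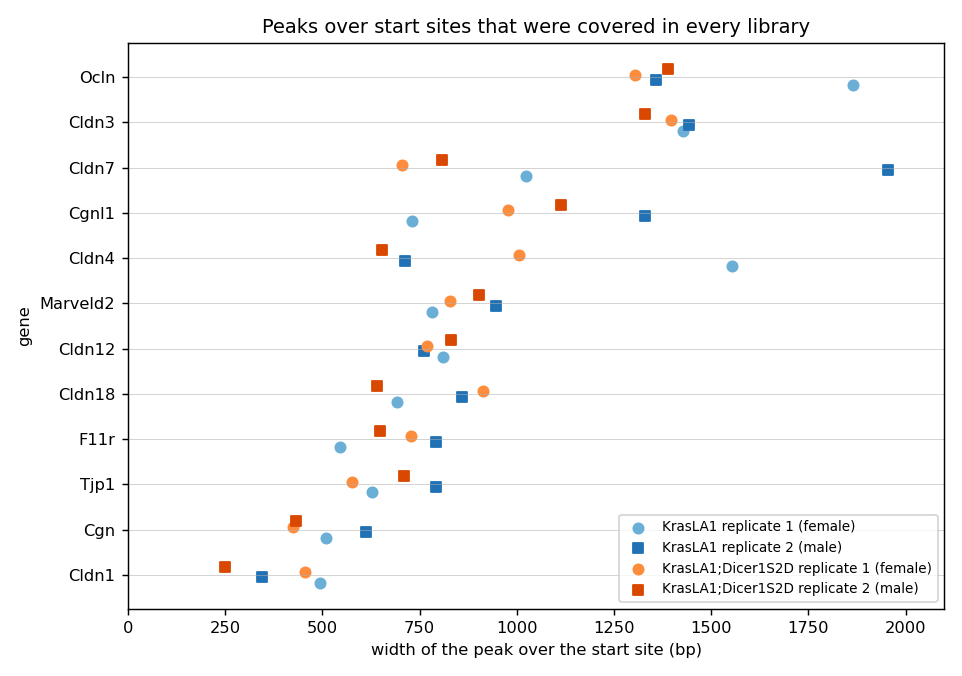
Width in bp of the peak over a start site in each library, for the 12 genes with a start covered in all 4 libraries. Circles are females and squares males. Cldn3 lies between 1331 and 1442 bp, whereas Cldn7 runs from 704 to 1955 bp and Cldn4 from 653 to 1553 bp.

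Base composition is given as a description. The 250 bases before the 16 starts open in all libraries had a median G and C content of 60.4% (42.0 to 70.8%), those before the 16 starts without a peak 51.4% (36.0 to 61.2%), and those before all 20084 starts 56.0%. Of the 6 motifs searched on both strands of these bases, the AP-1 motif TGANTCA was found before 3 of the 35 starts (8.57%, against 6.18% of all starts), those of Cldn4, Cldn15 and F11r. The Grainyhead motif AACCNGTT was found before 2 (5.71%, against 1.69%), those of Cgn and Cldn5, and the NKX2-1 motif CACTTG, which also has the form CANNTG of an E-box, before 6 (17.1%, against 11.1%). The TEAD motif GGAATG and the GATA motif AGATAA were each found before 3 (8.57%, against 11.5% and 8.72%), and the FOXA motif TGTTTAC before 0 (against 2.64%). These are matches of letters in a window and describe no binding.

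Peak width was compared for the regions called in all 4 libraries, as log2 width after each library's own median was taken off, with limma over 26402 autosomal regions. None of the 51 regions at the tight junction loci and 0% of all regions had an adjusted p under 0.05, and the smallest adjusted p was 0.999. At an unadjusted p under 0.05 there were 770 regions in all (2.92%) and 1 of the 51 (1.96%), the Ocln region given above. The estimate was above 0 in 29 of the 51 and below 0 in 22 (56.9% above, against 56.5% of all regions). Without the centring, which shifts the median of all regions to -0.125, the split was 13 above and 38 below (25.5% above, against 26.9% of all regions). The sign thus depends on the centring, so no direction can be given for the set. With 2 mice a group, each p-value sets the estimate against the spread between mice, which limma moderated with that over all regions.

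Genes with related roles were counted in the same way. The list of other tight junction genes, among them the polarity protein Pard3 and Epcam, had 167 regions at 24 of 28 genes, with 124, 121, 131 and 95 called in the order of libraries used above. It held 1 region in Magi3, chr3:104142450-104142688, called in KrasLA1;Dicer1S2D only with 196 and 239 bp, and 1 in Pard3, chr8:127316244-127316547, called in KrasLA1 only with 179 and 274 bp. Each was 0.599% of the list, against 0.596% and 1.42% of all autosomal regions with these patterns. The adherens junction and desmosome genes had 129 regions at 20 genes, with 90, 105, 102 and 75 called. Of these, 3 were called in KrasLA1 only and lay in Cdh1 (E-cadherin), Pkp4 and Ppl, with 184 to 462 bp, and 0 in KrasLA1;Dicer1S2D only. The 3 were 2.33% of the list, near the 1.42% of all autosomal regions. In both lists KrasLA1;Dicer1S2D replicate 2 had the fewest calls, as it did at the claudin and tight junction loci and over all regions.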

How the data were processed

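Open chromatin was measured in 4 libraries, grouped by the titles in the labels. Per the file headers, the authors deposited 5 tracks of intervals in mm10, 1 of peaks for each library and 1 of merged regions. Intervals carry no count, score or height, so a value is a position, and a peak under an unknown threshold is recorded as absent. Per the submitters' processing notes the tools were MACS3 3.0.0, BWA 0.7.12 and deepTools 3.5.1, with settings, filters, any shift for the transposase and read depth not given. Fewer reads can mean fewer peaks. All tracks were assigned, with 0 columns of other samples.

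Peaks overlapping by 1 bp or more were merged, which gave the authors' 61972 regions. Genes, starts and the bases before them came from RefSeq tables for GRCm38.p6, and all 30 symbols matched. A region in reach of several genes counts for each, and once in a total. Coordinates count from 1. Totals use the 19 autosomes. Groups were compared with exact permutation tests, and widths with limma 3.58.1 (R 4.3.3) and Benjamini-Hochberg adjustment. Shares have 95% Wilson intervals. Python 3.11.15, numpy 2.4.6, scipy 1.17.1, pandas 2.3.3 and matplotlib 3.10.9 were used, and the code was tested on simulated data. A planned test on counts or signal was not run, since the table holds neither.

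The genes and lists were chosen with earlier results of these data known. Values per library were given for genes with a region called in 1 group only, the 6 genes with the most regions, and Cldn2, Cldn3, Cldn4, Cldn5, Cldn18, Ocln, Tjp1 and F11r; other genes were added after their values were seen. Sequences were chosen among starts whose calls differ between libraries and for comparison. That of Cldn4 was shown for its motif matches, and that of the Tjp3 start called in 1 library was not shown. The alternatives changed the merging of peaks, the peaks kept, the window around a gene and the libraries.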

Additional observations from a re-analysis of the deposited data

Results flagged for a closer look

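The difference between the genotypes pointed one way in the females and the other way in the males, with 1 library per genotype and sex, so the opposition was not tested. At the autosomal claudin and tight junction loci, KrasLA1;Dicer1S2D minus KrasLA1 was 13 regions in the females and -25 in the males, and 3560 bp of peaks in the females and -18575 bp in the males. Over all autosomal regions the same differences were 7772 and -10285 regions. The single genes with opposite signs were Cldn2, Cldn3, Cldn12, Cldn18 and Marveld2 (1 region in the females and -1 in the males each), Cldn6 and Cldn9, which share their regions (2 and -1), Tjp3 (2 and -2), Tjp1 (1 and -3), Ocln (1 and -3) and Cgnl1 (2 and -5). Cldn10 (-1 and -2) and Marveld3 (-1 and -1) had the same sign in both sexes, and the remaining genes did not change in the females, the males or both. Opposite signs at single genes came with opposite signs over the genome, and their share over all genes was not counted. Replicate number, sex and single animals cannot be told apart here.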

How the results depend on the processing

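The difference in regions called, -6, stayed at or below 0 under every alternative except without KrasLA1;Dicer1S2D replicate 2, where it was 8.5; with 1 library left out it ran from -20.5 to 8.5 and otherwise from -8.5 to -1. With equal numbers of widest peaks it was -7, and -7946 bp, with the groups apart (exact permutation p = 0.333 for both). KrasLA1;Dicer1S2D replicate 2, the smallest library, lost no peaks in that setting. Within 2 kb of a gene end the base pairs were apart too (-2343.5 bp, exact permutation p = 0.333). Base pairs at the ends of all genes were not counted, so whether that separation is particular to these loci is unknown. Where a limma fit left 1 library in a group, that library was assumed to vary like the other group. The difference in peak width summed over the loci was below 0 throughout, from -13057 to -1958 bp with 1 library left out. The labels name no pairing of the replicate numbers, which coincide with sex. Deviations of replicate 1 correlated between the groups at 0.12 over 26402 regions. Differences within replicate number, the replicate block, average the same -6 regions and -7507.5 bp by construction, so they are no check of these differences. With that block, 0 widths were called by limma.

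The KrasLA1;Dicer1S2D-only regions and genes, 0 and 0, were 1 and 1 (Tjp1) with the widest 75% of peaks, and 2 to 12 and 2 to 10 with 1 library left out. The KrasLA1-only regions and genes, 3 and 3, were 0 and 0 within 2 kb of a gene end, and 4 to 18 and 4 to 9 with 1 library left out. Leaving out 1 library raised both patterns over all autosomal regions too. The KrasLA1-only regions there went from 861 to between 1577 and 6291. The KrasLA1;Dicer1S2D-only regions there went from 362 to between 1092 and 7558. The Cldn3 region was also absent among equal numbers of widest peaks and in a window of 2 kb around the gene. Width calls by limma were 0 under every alternative. Without read depth, an absent peak cannot be told from a peak under the threshold.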
